A study of Homo sapiens with 12 samples.

Results

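SR proteins, hnRNPs and the kinases that phosphorylate SR proteins were followed in K562 cells, an established human erythroleukemic line, after inhibition of the deubiquitinase USP7. The members were the protein-coding genes of GENCODE release 44 with an SRSF or HNRNP symbol, without the HNRNPCL genes, together with PTBP1, PTBP2, PTBP3, TRA2A, TRA2B, CLK1, CLK2, CLK3, CLK4, SRPK1 and SRPK2. This gave 46 of the 60609 genes listed. Of these, 14 were SR proteins (SRSF and TRA2 genes), 23 carried HNRNP symbols, 3 were polypyrimidine tract binding (PTB) proteins and 6 were kinases. The control group was K562 cells kept in DMSO (3 libraries), and the treated group was K562 cells given 10 μM FT671, a small-molecule USP7 inhibitor, for 48 h (3 libraries). No other agent or genetic change was named for either group, and both groups came from the same line. Libraries were made from total RNA after removal of ribosomal RNA and hold between 4555220 and 14250500 counts. CPM values are counts scaled by the total of the library and a TMM factor. With the library total alone, 3 counts, taken as the smallest level regarded as detectable, equal 0.211 to 0.659 CPM. This floor covers counting error only. The labels number the replicates and the study speaks of independent experiments. ChIP-seq samples of the series were not analysed here.

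SR proteins carry RNA recognition motifs and a domain rich in arginine and serine, and most of them promote the use of exons to whose enhancer sequences they bind. hnRNPs coat nascent transcripts and often repress splice sites, so that the choice of an exon depends on the balance between both families. The kinases of the SRPK and CLK families phosphorylate the arginine-serine domain, SRPKs mainly in the cytoplasm before nuclear import and CLKs in the nucleus. Many SR protein and hnRNP genes limit their own level by splicing their transcripts into forms that are removed by nonsense-mediated decay.

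After FT671 the members moved in both directions. Of the 46 members, 42 passed the filter on low counts, and 15 of these (35.7%) rose and 13 (31.0%) fell at an adjusted p-value of 0.05 by edgeR's quasi-likelihood test. Among all 13895 genes tested, 23.6% rose and 26.5% fell at the same threshold, so the share of members that fell was near that of all genes. At an adjusted p of 1e-05 by the same edgeR test, 4 members rose (SRSF7, HNRNPDL, SRSF3 and SRPK1, 9.52% of those tested) and 3 fell (CLK2, HNRNPUL1 and HNRNPAB, 7.14%). Of all genes tested, 1.79% rose and 4.13% fell at 1e-05. The study's methods used this threshold with DESeq2, for which counts are given below. The median log2 fold change was 0.073 over the members tested and -0.01 over all genes tested. In 18 members (42.9%) every FT671 library lay above every DMSO library, and in 13 (31.0%) every FT671 library lay below, while such separation was found for 26.8% and 30.3% of all genes tested. In bulk RNA, fewer cells with a transcript and less of it per cell cannot be told apart.

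The counts at 1e-05 depended on single libraries, for the members and for all genes tested. DMSO replicate 3 stood apart from the other controls over all genes, since comparing its counts with theirs gave a chi-square, divided by its degrees of freedom, of 7.55 and 8.73, against 2.94 between DMSO replicates 1 and 2 and 2.07 to 3.2 between FT671 libraries. Without it, 17 members rose and 13 fell at 0.05, against 3830 and 4100 of the 14909 genes then tested. Past 1e-05, 1 member (SRSF7) rose without DMSO replicate 1 or 2, or without FT671 replicate 1, 2 or 3. Without DMSO replicate 3 the number was 11. Over all genes, 249 rose past 1e-05 in the main fit and 1106 without DMSO replicate 3. The number was 82 and 120 without DMSO replicate 1 or 2, and 85, 75 and 34 without FT671 replicate 1, 2 or 3. The number of members that fell past 1e-05 was 1 without DMSO replicate 1, 2 without DMSO replicate 2 and 7 without DMSO replicate 3. It was 0 without FT671 replicate 1, 2 or 3 (13, 12 and 13 members were lower at an unadjusted p under 0.05 in these last fits by edgeR). Over all genes, 574 fell past 1e-05 in the main fit. The number was 251, 300 and 1501 without DMSO replicate 1, 2 or 3, and 231, 184 and 73 without FT671 replicate 1, 2 or 3. DESeq2's Wald test on all libraries gave 8 members higher and 7 lower at 1e-05, against 795 and 1158 over all genes.

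**Figure D1:**
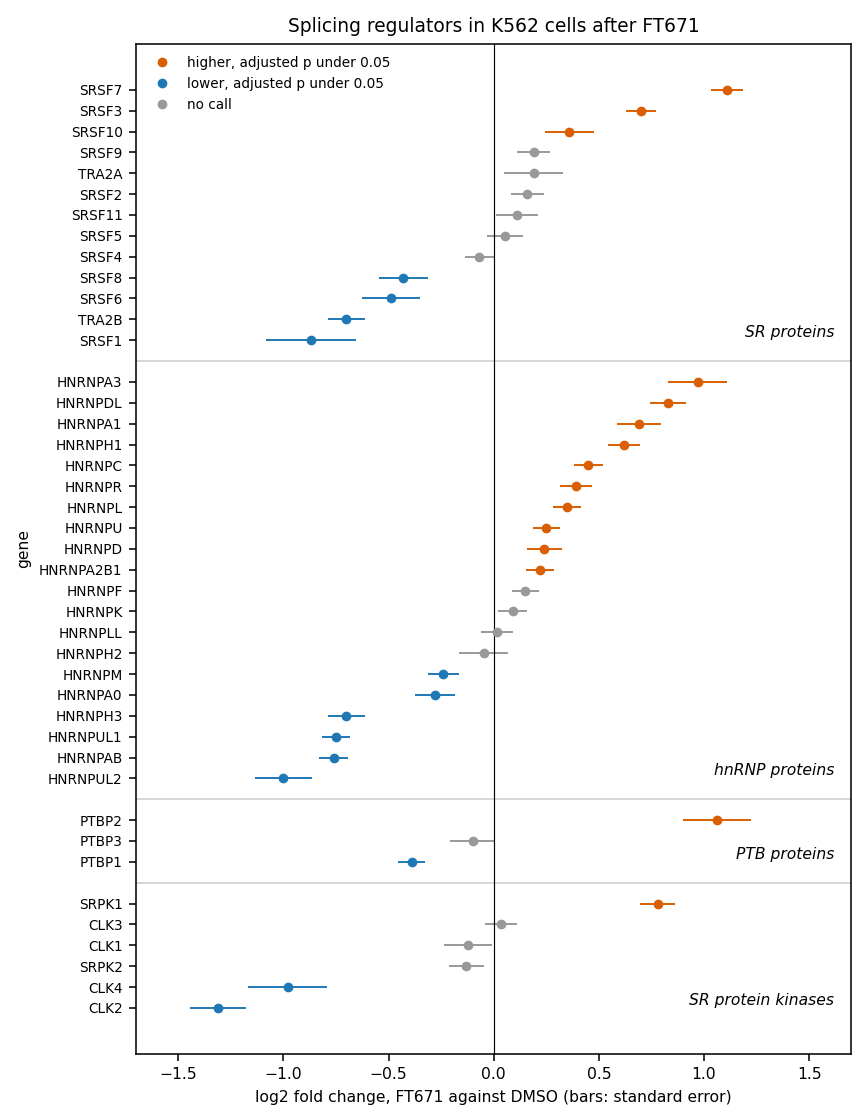
Log2 fold change of FT671 against DMSO (x axis) with its standard error for each of the 42 members tested, ordered within SR proteins, hnRNP proteins, PTB proteins and SR protein kinases. Colors mark the 15 members that rose, the 13 that fell and the 14 without a call at an adjusted p of 0.05, and each group holds members on both sides of 0.

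K562 identity was checked on markers. Of 13 genes that mark erythroleukemic K562 cells, 11 had at least 3 counts in every library, and their summed level was 2080 to 2110 CPM in DMSO and 1530 to 1610 CPM in FT671. Of 11 markers of other cell types, 5 (among them LYZ, EPCAM and PECAM1) had at least 3 counts in every library, MS4A1 had 0 counts throughout, and the summed level was 136 to 142 CPM in DMSO and 179 to 187 CPM in FT671. CD3E, CD79A, MPO, CD14 and ALB did not exceed 4 counts in any library. The part of these shifts in the results below was not tested. Protein-coding genes held 94.9% to 95.3% of the counts, and genes of the mitochondrial genome held 2.59% to 2.82% in DMSO and 1.47% to 1.76% in FT671.

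Promoter sequence is shown for 6 members, because they include some of the largest changes (SRSF7 among the rises, CLK2, HNRNPUL2 and HNRNPAB among the falls) and a pair of relatives with different responses (HNRNPH1 and HNRNPH2). Each sequence holds the 150 bases before the RefSeq transcript start (assembly GRCh38.p14), written on the strand of the gene, 5′ to 3′. Capitals mark the letters of 4 short motifs that were searched on both strands, namely CACGTG (the E-box of the MYC and USF type, which reads alike on both strands), the CCAAT box, the TATA box written as TATAAA, and the ETS core written as CCGGAA. On the other strand the CCAAT box reads ATTGG. None of the capitals of 1 motif overlaps those of another. The windows lie in no exon that GENCODE annotates for the same gene, and the window of CLK2 lies within the span of its longer transcripts. They are SRSF7 at chr2:38751495-38751644 (minus strand), HNRNPH1 at chr5:179634785-179634934 (minus), HNRNPH2 at chrX:101408072-101408221 (plus), HNRNPAB at chr5:178204383-178204532 (plus), HNRNPUL2 at chr11:62727458-62727607 (minus) and CLK2 at chr1:155273505-155273654 (minus).
SRSF7: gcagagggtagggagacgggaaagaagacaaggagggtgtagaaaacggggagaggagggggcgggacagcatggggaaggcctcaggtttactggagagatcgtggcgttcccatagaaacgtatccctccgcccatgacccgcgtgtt
HNRNPH1: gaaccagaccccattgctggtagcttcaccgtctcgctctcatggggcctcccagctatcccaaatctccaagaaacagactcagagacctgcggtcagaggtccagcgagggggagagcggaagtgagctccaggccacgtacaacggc
HNRNPH2: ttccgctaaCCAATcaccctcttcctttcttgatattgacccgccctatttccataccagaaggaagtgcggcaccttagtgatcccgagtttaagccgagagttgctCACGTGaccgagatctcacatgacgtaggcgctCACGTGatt
HNRNPAB: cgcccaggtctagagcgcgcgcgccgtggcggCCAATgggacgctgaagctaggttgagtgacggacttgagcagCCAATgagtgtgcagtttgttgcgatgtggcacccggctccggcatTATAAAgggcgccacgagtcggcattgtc
HNRNPUL2: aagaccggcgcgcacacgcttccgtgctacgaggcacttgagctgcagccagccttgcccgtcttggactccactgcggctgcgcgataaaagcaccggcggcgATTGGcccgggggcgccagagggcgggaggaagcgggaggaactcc
CLK2: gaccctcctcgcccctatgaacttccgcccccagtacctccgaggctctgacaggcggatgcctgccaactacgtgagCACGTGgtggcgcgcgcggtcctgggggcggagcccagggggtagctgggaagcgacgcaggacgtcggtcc
SRSF7 and HNRNPH1, which both rose, hold none of the 4 motifs in these windows. CLK2, which fell, holds CACGTG starting 72 bases before the start, and HNRNPH2, without a call, holds it at 42 and 9 bases before the start. HNRNPUL2 and HNRNPAB, which fell as well, hold no CACGTG. HNRNPAB has CCAAT at 118 and 75 bases before the start and TATAAA at 29 bases before the start.

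RefSeq promoters were matched for 42 of the 46 members, 39 of them tested, and not for HNRNPA1, HNRNPA1L3, SRSF2 and TRA2A. In the 250 bases before the start, CACGTG was present in 8 of the 39 tested members (20.5%), in 9.08% of 9863 tested genes and in 6.49% of all 27305 promoters searched. The 8 were HNRNPA3, HNRNPD and HNRNPDL among 14 that rose, CLK2, CLK4, HNRNPH3 and HNRNPM among 13 that fell, and HNRNPH2 among 12 without a call. CCAAT was found in 43.6% of the tested members and 35.6% of tested genes (33.0% of all promoters), TATAAA in 12.8% and 5.02% (11.1% of all), and CCGGAA in 15.4% and 26.5% (14.8% of all). CCGGAA was in 0 of the 13 that fell, 2 of the 14 that rose and 4 of the 12 without a call. These are matches of letters, not measured binding sites.

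SR proteins moved in both directions. Of 13 tested, SRSF7, SRSF3 and SRSF10 rose, SRSF1, TRA2B, SRSF6 and SRSF8 fell, and 6 had no call, with a median log2 fold change of 0.113. These shares, 23.1% that rose and 30.8% that fell, were near the 23.6% and 26.5% of all genes tested. SRSF7 and SRSF3 code for closely related SR proteins that also take part in export of mRNA from the nucleus. SRSF7 (ENSG00000115875, chr2:38743599-38751494, hg38, minus strand) measured 77.5, 78.5 and 76.5 CPM in DMSO replicates 1 to 3 and 179, 158 and 166 CPM in FT671 replicates 1 to 3. The groups lay far apart, and the level rose 2.16-fold (log2 fold change 1.11 ± 0.0762 SE, adjusted p = 1.14e-07 by edgeR's quasi-likelihood test). SRSF3 (ENSG00000112081, chr6:36594353-36605600, plus strand) measured 192, 185 and 213 CPM in DMSO and 323, 309 and 323 CPM in FT671, a 1.63-fold rise (0.70 ± 0.0731 SE, adjusted p = 3.82e-06). Its lowest FT671 library stood well above its highest DMSO library.

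SRSF1, the founding SR protein and a regulator of constitutive and alternative splicing, fell from a low measured level. SRSF1 (ENSG00000136450, chr17:58000919-58007346, minus strand) measured 7.55, 7.51 and 11.6 CPM in DMSO and 4.44, 4.69 and 4.74 CPM in FT671. DMSO replicate 3 stood above the other DMSO libraries, and no FT671 library reached the DMSO range (1.83-fold lower, log2 fold change -0.87 ± 0.213 SE, adjusted p = 0.00378). Of its exon bases, 32.7% are shared on the same strand with a second protein-coding entry, ENSG00000266086, which had 0 counts in every library. Gene counts of STAR leave out reads that fall on more than 1 gene, so the level of SRSF1 may be understated where the annotation used for counting held both entries. On the opposite strand an overlapping gene entry, ENSG00000279069, had a log2 fold change of -0.93. It held 103 to 341 counts in DMSO and 52 to 127 in FT671, where SRSF1 held 63 to 109 and 20 to 53. Whether reads of SRSF1 were counted for this entry was not tested.

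TRA2B, an SR-like activator of exons with purine-rich enhancers, fell from 96.4 ± 4.83 to 58.8 ± 4.46 CPM (mean ± SD, n = 3, log2 fold change -0.70). SRSF6 fell from 22.9 ± 3.42 to 15.8 ± 1.5 CPM (-0.49) and SRSF8, an intronless copy of SRSF2, from 30.8 ± 2.0 to 23.2 ± 2.43 CPM (-0.43). For SRSF8 the adjusted p was 0.0669 without FT671 replicate 3, and its reads may be divided with the related SRSF2. SRSF10, which acts as a splicing repressor when dephosphorylated, had a log2 fold change of 0.36 with overlapping groups. Its DMSO libraries measured 69.2, 68.0 and 97.4 CPM and its FT671 libraries 93.5, 101 and 101 CPM, so that DMSO replicate 3 lay among the treated libraries. The call for SRSF10 was lost without DMSO replicate 1 (adjusted p = 0.116), DMSO replicate 2 (0.0883), FT671 replicate 2 (0.076) or FT671 replicate 3 (0.0856), each by edgeR's quasi-likelihood test.

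The 6 SR proteins without a call had log2 fold changes of 0.19 (SRSF9), 0.19 (TRA2A), 0.16 (SRSF2), 0.11 (SRSF11), 0.055 (SRSF5) and -0.069 (SRSF4). SRSF9, SRSF2 and SRSF5 had every FT671 library above every DMSO library by small margins, and SRSF4 had every one below. With correction for gene length or for GC content, 5 SR proteins rose instead of 3. Over all genes tested, 3848 rose with the length correction and 4040 with the GC correction, against 3276 in the main fit. SRSF12, known as a repressor related to SRSF10, had 0 counts in all 6 libraries. Scaled by the library total alone, 3 counts allow up to 0.211 CPM in the deepest library and 0.659 CPM in the shallowest.

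**Figure D2:**
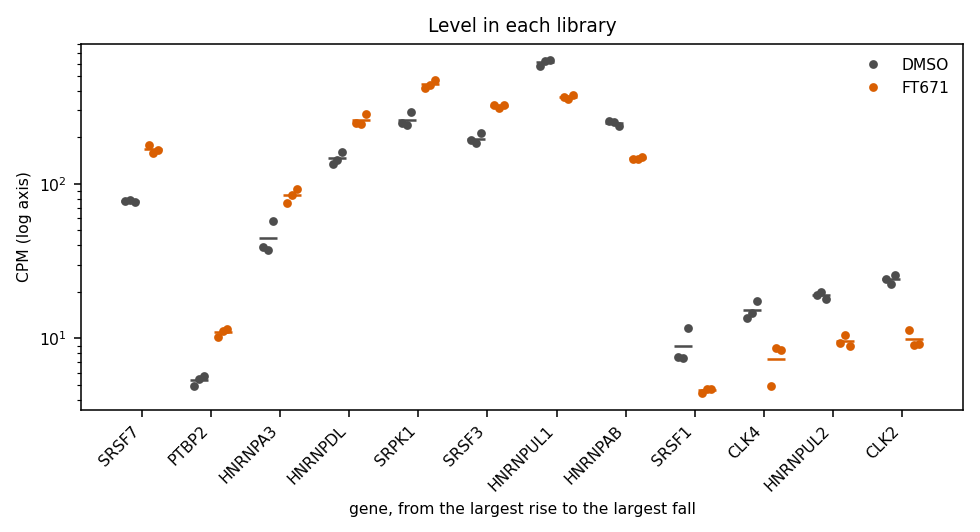
CPM on a log axis in each library for the 12 members with the largest changes or past 1e-05, from SRSF7 on the left to CLK2 on the right. Points are the 3 DMSO and 3 FT671 libraries and lines are group means, and in none of the 12 do the groups overlap.

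hnRNP genes made up most of the rises. Of 20 tested, 10 rose (50.0%), 6 fell (30.0%) and 4 had no call, with a median log2 fold change of 0.188. Of all genes tested, 23.6% rose and 26.5% fell, so the share of hnRNP genes that fell was near that of all genes. The genes whose symbols start with HNRNPA were divided, since HNRNPA3, HNRNPA1 and HNRNPA2B1 rose while HNRNPAB and HNRNPA0 fell. HNRNPA3 (ENSG00000170144, chr2:177212694-177223959, plus strand) measured 38.9, 37.5 and 57.3 CPM in DMSO and 75.3, 85.3 and 93.2 CPM in FT671. DMSO replicate 3 was again the highest control but stayed below all treated libraries (1.95-fold higher, log2 fold change 0.97 ± 0.139 SE, adjusted p = 6.57e-05). Of the exon bases of HNRNPA3, 54.8% overlap other genes, mainly NFE2L2 on the opposite strand, which had a log2 fold change of -0.38. HNRNPA1 rose from 215 ± 31.8 to 344 ± 36.8 CPM (0.69 on the log2 scale), and because several processed copies of this gene exist in the genome its count is uncertain. HNRNPA2B1 rose from 623 ± 4.26 to 727 ± 33.8 CPM (0.22), with an adjusted p of 0.0622 by edgeR without FT671 replicate 3.

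HNRNPDL, a relative of the AU-rich element binding protein HNRNPD, was the hnRNP gene with the lowest adjusted p among the rises. HNRNPDL (ENSG00000152795, chr4:82422565-82430462, minus strand) measured 135, 142 and 162 CPM in DMSO and 249, 243 and 283 CPM in FT671. All treated libraries lay above all controls (1.78-fold, log2 fold change 0.83 ± 0.0862 SE, adjusted p = 3.66e-06). HNRNPD itself had a log2 fold change of 0.24 with overlapping groups, and its adjusted p rose to 0.138 without DMSO replicate 1, 0.0756 without DMSO replicate 2, 0.0776 without FT671 replicate 1 and 0.114 without FT671 replicate 3 (edgeR). HNRNPH1, which binds G-rich runs, rose from 246 ± 17.9 to 378 ± 18.6 CPM (0.62), and HNRNPC, which binds uridine tracts and guards against exonization of Alu elements, rose from 405 ± 16.2 to 553 ± 31.4 CPM (0.45). HNRNPR (0.39), HNRNPL (0.35) and HNRNPU (0.25) completed the rises on the log2 scale. COX20, which overlaps HNRNPU on the opposite strand, had a log2 fold change of 0.62.

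HNRNPUL2 and HNRNPUL1, relatives of HNRNPU known for roles in DNA end resection, and HNRNPAB fell most among the hnRNP genes. HNRNPUL2 (ENSG00000214753, chr11:62712630-62727457, minus strand) measured 19.0, 20 and 18.1 CPM in DMSO and 9.33, 10.6 and 8.94 CPM in FT671, a 2.0-fold fall (log2 fold change -1.0 ± 0.134 SE, adjusted p = 3.46e-05). Of its exon bases 44.3% are shared with the read-through gene HNRNPUL2-BSCL2, itself a member with 0 counts in every library, so the count of HNRNPUL2 may be understated in the same way. HNRNPUL1 (ENSG00000105323, chr19:41262496-41307787, plus strand) measured 581, 627 and 630 CPM in DMSO and 364, 354 and 376 CPM in FT671. The 3 treated libraries were close together and far below the controls (1.68-fold lower, -0.75 ± 0.0680 SE, adjusted p = 1.13e-06).

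HNRNPAB (ENSG00000197451, chr5:178204533-178211163, plus strand) measured 255, 253 and 237 CPM in DMSO and 146, 145 and 149 CPM in FT671. This was a 1.69-fold fall with no overlap (log2 fold change -0.76 ± 0.0690 SE, adjusted p = 1.13e-06). HNRNPH3 fell from 79.6 ± 4.95 to 48.9 ± 0.310 CPM (-0.70). HNRNPA0 (-0.28, overlapping groups) and HNRNPM (-0.24) were the smallest falls. HNRNPA0 lost its call without DMSO replicate 1 (adjusted p = 0.0979 by edgeR), DMSO replicate 2 (0.0924), FT671 replicate 2 (0.126) or FT671 replicate 3 (0.0937), and HNRNPM lost it without FT671 replicate 1 (0.0821). Both also lost it under the length correction (0.225 and 0.0871).

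HNRNPF (log2 fold change 0.15), HNRNPK (0.091), HNRNPLL (0.015) and HNRNPH2 (-0.048) had no call. HNRNPA1L2, an intronless copy of HNRNPA1, and HNRNPA1L3, another of its copies, did not pass the filter. HNRNPA1L2 had 0, 7 and 1 counts in DMSO and 1, 2 and 1 in FT671, and HNRNPA1L3 had 8, 5 and 1 in DMSO and 1, 7 and 9 in FT671. Reads that match HNRNPA1 equally well cannot be assigned, which leaves both levels uncertain.

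The PTB proteins moved in opposite directions. PTBP1, the broadly expressed repressor of neuronal and muscle exons, fell from 1080 ± 25.1 to 820 ± 22.0 CPM (log2 fold change -0.39 ± 0.0646 SE, adjusted p = 2.04e-04 by edgeR). PTBP2, the form known from neurons and testis whose own transcript PTBP1 directs to decay, rose from a low level. PTBP2 (ENSG00000117569, chr1:96721665-96823738, plus strand) measured 4.92, 5.50 and 5.73 CPM in DMSO and 10.2, 11.2 and 11.5 CPM in FT671. The groups did not overlap, and the difference was 2.09-fold (1.06 ± 0.162 SE, adjusted p = 1.06e-04). PTBP3, a form enriched in blood cells, measured 677 ± 114 CPM in DMSO and 629 ± 58.5 CPM in FT671 (log2 fold change -0.10) without a call. Among its controls, DMSO replicate 3 was the highest at 806 CPM, and without it the log2 fold change was 0.034. Despite its rise PTBP2 remained the lowest tested member per length, at 0.267 CPM per kb of exon in DMSO and 0.546 in FT671, where PTBP1 was at 143 and 109.

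The kinases of SR proteins were likewise divided. SRPK1 rose, CLK2 and CLK4 fell, and CLK1, CLK3 and SRPK2 had no call. Of the 6 kinases, 16.7% thus rose and 33.3% fell, against 23.6% and 26.5% of all genes tested. SRPK1 (ENSG00000096063, chr6:35832966-35921342, minus strand) measured 247, 241 and 292 CPM in DMSO and 421, 440 and 473 CPM in FT671. Every treated library was above every control (1.72-fold, log2 fold change 0.78 ± 0.0834 SE, adjusted p = 4.80e-06). Of the exon bases of SRPK1, 28.1% overlap LHFPL5 on the opposite strand, which had a log2 fold change of 0.67 with 670 to 1489 counts in DMSO and 737 to 1936 in FT671. The strand setting of the counting is not given in the sources used here, so reads of SRPK1 and LHFPL5 may not have been kept apart.

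CLK2 showed the largest fall of all members. CLK2 (ENSG00000176444, chr1:155262868-155278491, minus strand) measured 24.2, 22.5 and 25.7 CPM in DMSO and 11.3, 9.02 and 9.21 CPM in FT671. The highest treated library was well below the lowest control (2.47-fold lower, log2 fold change -1.31 ± 0.134 SE, adjusted p = 3.33e-06). CLK4 (ENSG00000113240, chr5:178602664-178630615, minus strand) measured 13.5, 14.7 and 17.6 CPM in DMSO and 4.89, 8.66 and 8.40 CPM in FT671. FT671 replicate 1 was the lowest library, and no treated library reached the controls (1.97-fold lower, -0.98 ± 0.186 SE, adjusted p = 6.12e-04). CLK1, CLK3 and SRPK2 had log2 fold changes of -0.12, 0.036 and -0.13, with overlapping groups in all 3.

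Levels were also summed over the members of each group. All 46 members together measured 10290 ± 323 CPM in DMSO and 11140 ± 329 CPM in FT671. The SR proteins went from 1331 ± 47.6 to 1546 ± 35.7 CPM, the HNRNP genes from 6679 ± 146 to 7457 ± 244 CPM, the PTB proteins from 1758 ± 101 to 1460 ± 46.1 CPM and the kinases from 522 ± 34.4 to 677 ± 34.0 CPM. No test was made on these sums. Within the PTB proteins the largest difference was that of PTBP1, and within the kinases that of SRPK1.

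Per kb of exon, the order of levels was led in DMSO by HNRNPF (284 CPM per kb), PTBP1 (143), HNRNPAB (117) and HNRNPK (109). HNRNPAB moved from rank 3 to rank 7 among the members (69.3 CPM per kb in FT671) and HNRNPUL1 from rank 5 to rank 10 (from 91.6 to 54.5). SRPK1 moved from rank 12 to rank 8 (from 38.9 to 66.5). SRSF2 was the SR protein with the highest level per kb in both groups, at 42.0 CPM per kb in DMSO and 47.1 in FT671, and SRSF3 went from 27.6 to 44.8. Exon length here is the union of all annotated exons, which can understate the level of genes with long, rarely used exons.

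**Figure D3:**
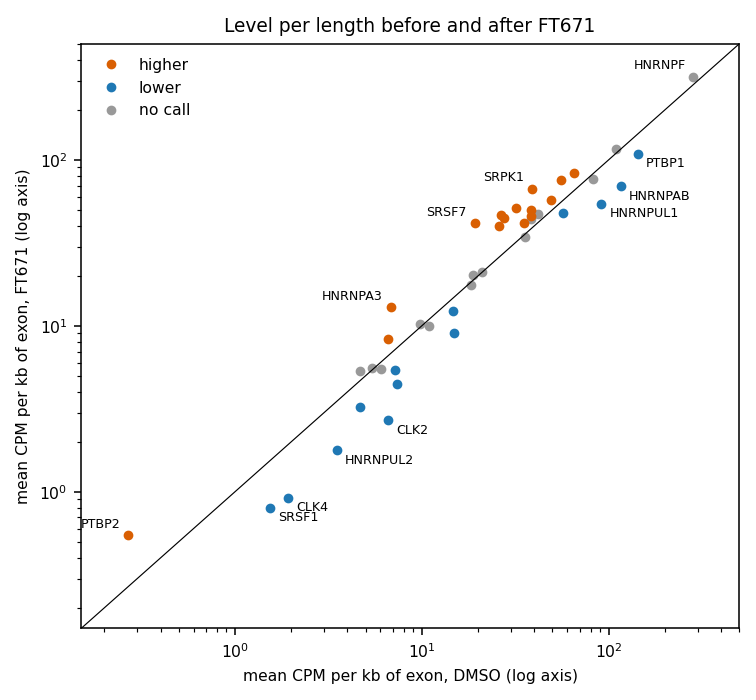
Mean CPM per kb of exon in DMSO (x axis) and FT671 (y axis), both on log axes, for the 42 members tested. The line marks equal levels, HNRNPF is the highest in both groups, PTBP2 is the lowest, and CLK2 (from 6.60 to 2.69) lies farthest below the line.

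Ratios between related genes were then formed within each library, which removes the scaling of the library. Of 18 pairs of relatives, 17 could be measured, and in 15 of these the ratio did not overlap between groups. The share of non-overlapping ratios among other pairs of genes was not computed, so this count is a description of the pairs. With 3 libraries against 3 the exact two-sided permutation test cannot give a p below 0.1, and that p (0.113 after Benjamini-Hochberg adjustment over the pairs) was reached by each of the 15. The ratio of PTBP1 to PTBP2 had log2 values of 7.70, 7.59 and 7.46 in DMSO and 6.33, 6.12 and 6.13 in FT671, a 2.62-fold lower ratio. This was the only pair among the 17 in which both genes had a call and the calls were opposite. CLK2 to CLK3 went from -2.14 ± 0.153 to -3.45 ± 0.221 (SD, n = 3) and SRSF1 to SRSF9 from -4.08 ± 0.413 to -5.16 ± 0.173.

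Relative to TRA2B, TRA2A gained 0.90 on the log2 scale (from -2.54 ± 0.162 to -1.65 ± 0.121), although TRA2A itself had no call. CLK1 gained 0.95 relative to CLK4, and SRPK1 gained 0.92 relative to SRPK2. HNRNPH1 gained 0.68 relative to HNRNPH2 and 0.47 relative to HNRNPF. HNRNPDL gained on HNRNPD, with a ratio of HNRNPD to HNRNPDL that went from 0.76 ± 0.0250 to 0.18 ± 0.0750. SRSF3 and SRSF7 rose together, SRSF7 more so (change of the ratio -0.41). The pairs with overlapping ratios were PTBP1 with PTBP3 and HNRNPUL1 with HNRNPUL2, where both relatives fell.

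**Figure D4:**
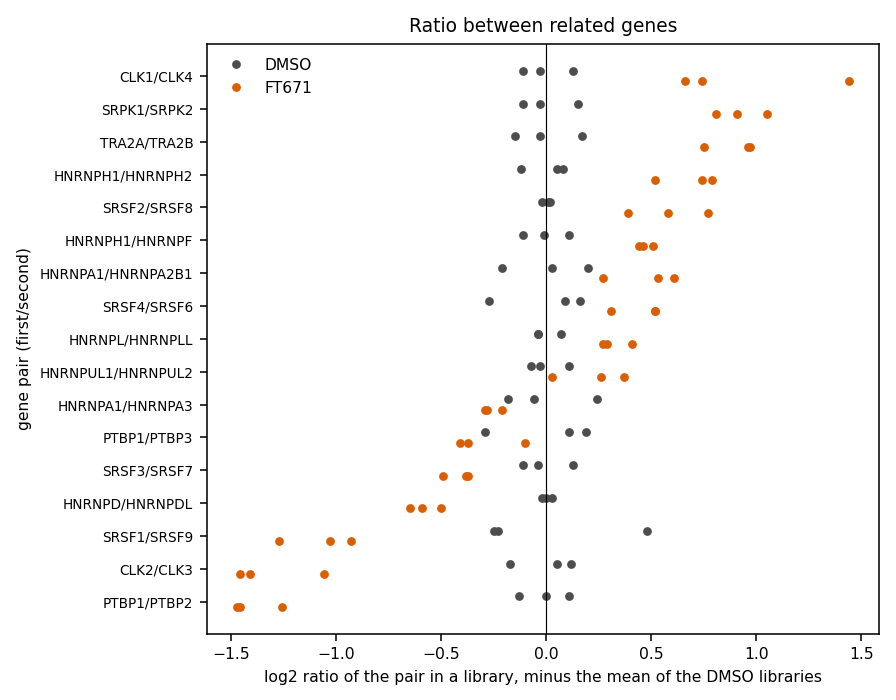
Log2 ratio of each of 17 pairs of related genes in each library, minus the mean of the DMSO libraries (x axis), with 1 point per library. The points farthest to the left are FT671 points of PTBP1/PTBP2 and CLK2/CLK3. That of CLK1/CLK4 in FT671 replicate 1 lies farthest to the right, and the groups overlap in HNRNPUL1/HNRNPUL2 and PTBP1/PTBP3.

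Annotated transcript forms were counted for the members. A transcript with the biotype of nonsense-mediated decay is annotated in 34 of the 42 tested members (81.0%) and in 48.8% of the 11154 protein-coding genes tested. It was annotated in 15 of the 15 members that rose, 8 of the 13 that fell (61.5%) and 11 of the 14 without a call (78.6%). A retained-intron transcript is annotated in 78.6% of the tested members and 62.0% of the protein-coding genes tested. Genes with more annotated transcripts have more chances to hold either form, and the median number of transcripts was 18 in members that rose, 9 in those that fell and 8 in protein-coding genes tested. The gene counts do not separate productive from unproductive transcripts. Across the 42 members, which share libraries, the log2 fold change had a Pearson r of -0.351 with GC content (Spearman rho -0.275), 0.23 with exon length (0.224) and 0.21 with the level in DMSO (0.228).

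Genes of the same pathway that are not members were read from fixed lists. Their counts stand beside 23.6% of all genes tested that rose and 26.5% that fell. The hnRNP proteins with other symbols held 7 tested genes, of which 0 rose and 4 fell (57.1%) by edgeR's test, with a median log2 fold change of -0.231. DESeq2's Wald test also gave 0 that rose, and 0 were higher at an unadjusted p under 0.05. The largest falls were those of RBMX (-0.66), a splicing regulator on the X chromosome, and SYNCRIP (-0.49), an RNA-binding protein related to HNRNPR. With correction for length or GC content, 1 of the 7 rose. SR-related proteins carry an arginine-serine domain without the make-up of classical SR proteins. Of 31 tested, 19 rose (61.3%) and 7 fell (22.6%, near the share of all genes), with a median of 0.332. ZRANB2, a zinc finger protein that binds 5′ splice sites, rose from 54.9 ± 8.16 to 133 ± 12.6 CPM (1.3) and NKTR, a large cyclophilin, from 39.1 ± 6.29 to 92.3 ± 2.56 CPM (1.26). SCAF1 fell from 143 ± 9.27 to 68.8 ± 6.99 CPM (-1.07) and RBM23 from 64.3 ± 2.59 to 39.9 ± 3.63 CPM (-0.69). U2AF1 did not pass the filter, with 5, 1 and 0 counts in DMSO and 2, 2 and 3 in FT671. Whether these counts reflect its true level was not tested.

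Other splicing regulators, many of them restricted to particular tissues, had 27 tested genes, of which 4 rose and 11 fell (median -0.197). These were 14.8% and 40.7%, against 23.6% and 26.5% of all genes tested. RBFOX2, which binds GCAUG elements, fell from 49.1 ± 0.586 to 19.4 ± 1.15 CPM (-1.33) and RBM47 from 13.2 ± 0.297 to 6.07 ± 0.409 CPM (-1.14). KHDRBS3 rose from 1.56 ± 0.573 to 4.48 ± 1.19 CPM (1.69). MATR3, a nuclear matrix protein, rose from 14.4 ± 2.31 to 29.0 ± 5.23 CPM (1.06), and since the annotation holds a second entry of the same symbol its level is uncertain. Rises in this list numbered 7 with the length correction and replicate block together.

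Enzymes that modify SR proteins and hnRNPs and their importers had 16 tested genes, of which 6 rose and 5 fell (median -0.012). These were 37.5% and 31.2%, against 23.6% and 26.5% of all genes tested. CDK11A rose from 3.76 ± 0.797 to 6.30 ± 0.950 CPM (0.73), although it shares reads with the near-identical CDK11B. PRMT1, the main arginine methyltransferase of hnRNPs, rose from 186 ± 17.1 to 295 ± 7.65 CPM (0.66). The kinases DYRK1B (-0.57) and DYRK1A (-0.49) fell. Of 18 factors of nonsense-mediated decay, 8 rose (44.4%) and 6 fell (33.3%), with a median of 0.071. UPF3B (0.74) and UPF2 (0.60) rose, and SMG6 (-0.69), the endonuclease of the pathway, and NBAS (-0.60) fell. The number that rose was 5 without DMSO replicate 1 or without FT671 replicate 3.

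**Figure D5:**
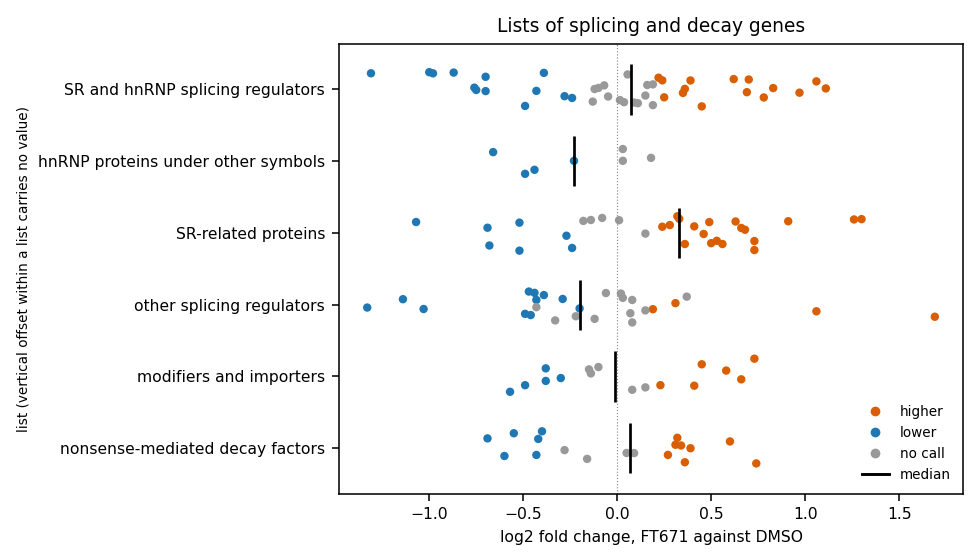
Log2 fold change (x axis) of each tested member and of each tested gene in 5 related lists, colored by call, with a black line at each median. The medians range from -0.231 for hnRNP proteins under other symbols to 0.332 for SR-related proteins, and every list except the hnRNP proteins under other symbols holds genes that rose and genes that fell.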

How the data were processed

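RNA-seq of K562 cells treated with DMSO (n = 3) or FT671 (n = 3) was used. Paired-end reads had been aligned by the authors with STAR (two-pass mode, hg38), and the raw counts of STAR per gene were deposited without normalization. The STAR version, annotation release and strand setting are not given in the sources used here. Identifiers were matched to GENCODE release 44 (60295 of 60609). The counts were filtered with filterByExpr, scaled by TMM and tested by edgeR 4.0.16 (quasi-likelihood, no covariates, Benjamini-Hochberg over 13895 genes) in R 4.3.3. DESeq2 1.42.0 was an alternative, as were other scalings, filters, length and GC corrections (loess span 0.3), a replicate block and leaving out each library. Paralog ratios were differences of log2 CPM (prior count 2) in Python 3.11.15. The fit was tested on simulated data. Members and lists were chosen with earlier results of these data known. Library values are given for members past 1e-05, the 5 largest rises and falls past 0.05 and, as counts, for members that failed the filter. Other library values and the promoters printed were chosen after the values were seen. In each pathway list the 2 largest rises and falls are named. Protein sequences were not used here. Genes of the lists outside this rule are given as counts, and a few results are not reported here.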

Additional observations from a re-analysis of the deposited data

How the results depend on the processing

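Of the 28 members with a call at 0.05, 22 kept it under every alternative, and HNRNPA0, HNRNPA2B1, HNRNPD, HNRNPM, SRSF10 and SRSF8 lost it under at least 1. Against 4 members higher at 1e-05, the count was 7 with the replicate block, 8 with DESeq2's Wald test, 9 without a filter, 8 with the length correction, 10 with that correction and the block, 9 with the GC correction, 9 with that and the block, and 1 to 11 when a library was left out. Against 3 members lower at 1e-05, the count was 5 with the replicate block, 7 with DESeq2's Wald test, 8 without a filter, 5 with the length correction and the block, 6 with the GC correction, 5 with that and the block, and 0 to 7 when a library was left out. Counts over all genes also moved from 249 higher and 574 lower. They were 402 and 753 with the block, 795 and 1158 with DESeq2's Wald test, and 977 and 1757 without a filter. The length correction gave 518 and 621, or 875 and 878 with the block. With the GC correction they were 986 and 1075, or 998 and 1008 with the block. SR proteins that rose numbered 5 rather than 3 with the length or GC correction, with or without the block, and 2 to 5 when a library was left out. The cause of these shifts was not tested.

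Members without a call changed sign. SRSF4 was at 0.068 with the length correction and 0.074 with the block added, and PTBP3 at 0.036 with either and between -0.198 and 0.034 when a library was left out, positive only without DMSO replicate 3. HNRNPH2 was between -0.15 and 0.041, positive only without DMSO replicate 3, and CLK3 at -0.002 without a filter. HNRNPLL was at -0.019 with library totals, -0.025 without a filter, -0.019 with the GC correction, and between -0.011 and 0.067 when a library was left out, negative without DMSO replicate 3, FT671 replicate 1 (-0.007) or FT671 replicate 2 (-0.005).

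Whether the replicate numbers pair the libraries could not be decided. The deviations of same-numbered libraries correlated at 0.115, -0.0605 and 0.14, and not every library correlated best with its own number. With 3 libraries per group such weak correlations cannot show or exclude pairing. With the block, 16 members rose and 13 fell at 0.05, SRSF9 being the added call, against 3374 and 3761 of all genes tested. In libraries of 4555220 to 14250500 counts, members with few counts such as HNRNPA1L2 could not be compared.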
